A study of Rattus norvegicus with 10 samples.

Results

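The genes described here are 10 genes of the perineuronal net and of the brain's soluble and membrane-bound chondroitin sulfate proteoglycans, measured in left hippocampal tissue from male rats of the TgF344-AD line. They were taken by symbol from the count table: Acan, Bcan, Ncan, Vcan, Hapln1, Hapln4, Tnr, Tnc, Cspg5 and Ptprz1. All 10 were found among the 17168 genes of the table, and all 10 had enough reads to be tested, as 12161 genes of the table had. RNA sequencing was done on 10 rats aged 11 months, 1 library a rat. The untreated group of 5 rats ate plain rodent chow, and the RG2833 group of 5 rats ate chow with 750 mg of RG2833 per kg, a drug that blocks HDAC1 and HDAC3 (histone deacetylases), for 6 months from the age of 5 months; the design text names another drug, ibudilast, in its sentence on the timing, and the treatment label of each sample was followed. Both groups carry the TgF344-AD transgenes, mutant human amyloid precursor protein and presenilin 1 under a mouse prion promoter, so there was no group without the disease model.

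A perineuronal net is a lattice of extracellular matrix around the cell body and proximal dendrites of some neurons, best known on fast-spiking parvalbumin interneurons and, in the hippocampus, on pyramidal cells of CA2. Its backbone is hyaluronan, to which the lecticans (the chondroitin sulfate proteoglycans aggrecan, brevican, neurocan and versican) bind at one end with the help of link proteins, while tenascin-R ties their other ends together. The net closes periods of plasticity in development, and its enzymatic removal reopens some forms of plasticity in the adult.

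Library totals ran from 15118203 to 18533520 expected counts, and a member had between 70 and 13675 counts in a library. The markers of hippocampal pyramidal and granule neurons were present: 8 of the 12 listed genes were tested, and their summed level ran from 539.7 to 1277 CPM (read counts scaled to a common library total) in untreated and from 660 to 1155 CPM in RG2833 libraries. Library sizes were scaled by TMM, the trimmed mean of M-values, before CPM were taken. Libraries stood apart in 2 ways. Untreated replicate 2 and RG2833 replicate 1 were rich in choroid plexus RNA, with 8056 and 9431 CPM over 10 marker genes against at most 290 CPM in the other 8. Untreated replicate 3 and RG2833 replicates 4 and 5 were low in hippocampal neuron markers (539.7, 660 and 673 CPM, against 724 to 1277 CPM elsewhere) and high in astrocyte markers (9117, 10040 and 10052 CPM, against 6303 to 8998 CPM).

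None of the 10 genes passed the comparison of RG2833 with untreated rats (edgeR quasi-likelihood test, Benjamini-Hochberg adjusted p at least 0.841 for each). The share called among all 12161 genes was also 0.00%. At an unadjusted p under 0.05 there was 1 of the 10, Bcan, which was higher in RG2833, against 5.66% of all genes tested in either direction and 2.94% higher. The number of the 10 at that p was 0 to 3 with 1 library left out, 0 with RLE or upper-quartile scaling or a minimum count of 50, 2 with no filter and 4 with 2 surrogate variables. Counts over all genes moved too: 780 of 14750 were at that p with no filter and 1951 of 12161 with 2 surrogate variables. In the fits that gave 3 of the 10 there were 1732 of 12196 (untreated replicate 3 left out) and 927 (RG2833 replicate 1 left out). The groups did not overlap for 0 of the 10, against 1.00% of all genes. The mean was higher in RG2833 for 6 genes and lower for 4, against 46.5% of all genes higher. The median log2 fold change of the 10 was 0.06, beside -0.01 over all genes. DESeq2, which called 7 of all genes, and limma-voom, which called 0, also called 0 of the 10 at an adjusted p under 0.05, and each had 1 of them at an unadjusted p under 0.05.

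**Figure D1:**
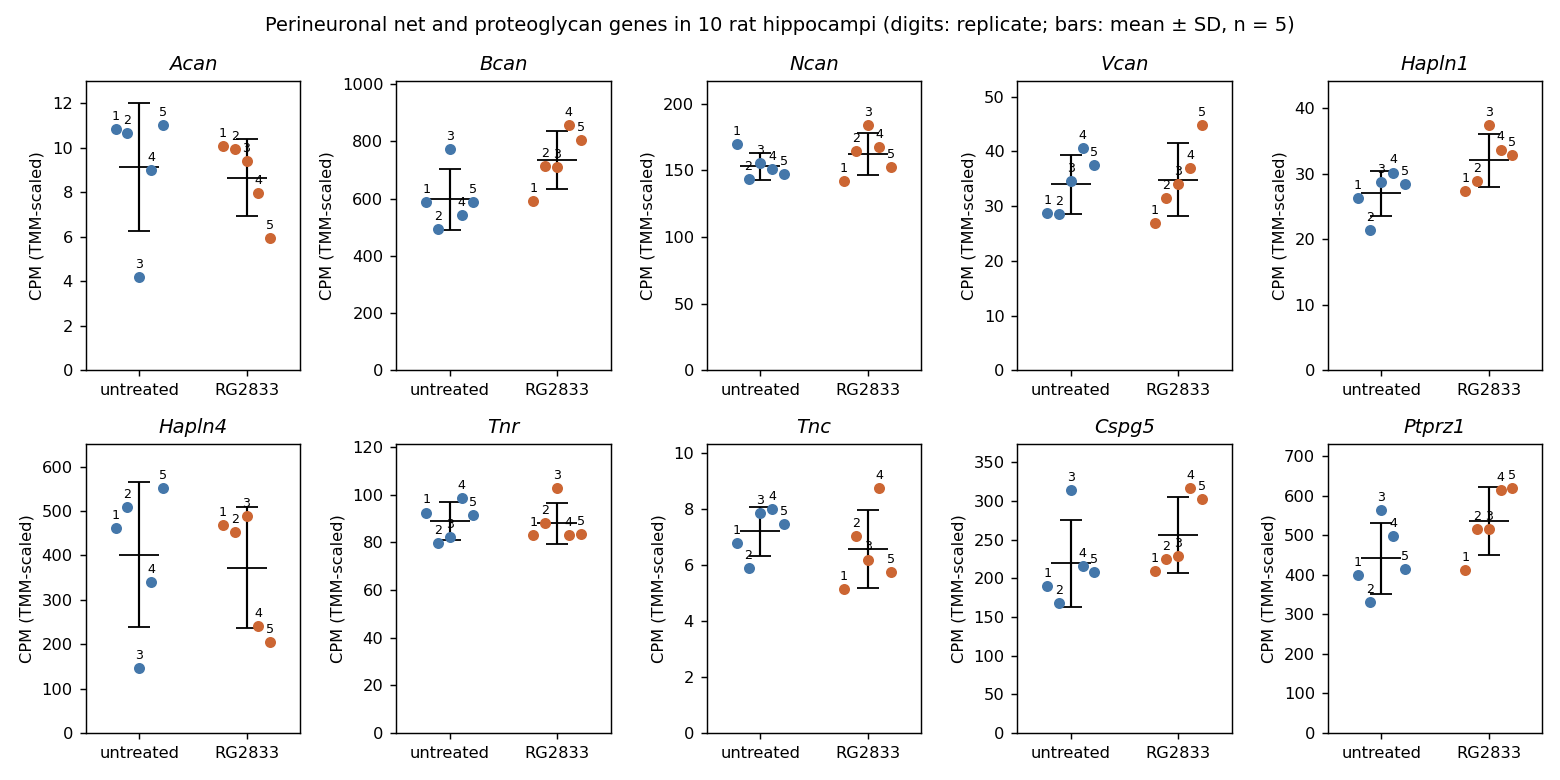
CPM (vertical axis, from 0) of each of the 10 genes in each library; blue points are the 5 untreated and orange points the 5 RG2833 rats, digits are replicate numbers, and bars are mean ± SD. The groups overlap in every panel; untreated 3 and RG2833 4 and 5 are the lowest points for Acan and Hapln4 and among the highest for Bcan, Cspg5 and Ptprz1.

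Of the lecticans, Bcan had the largest difference. Brevican is a lectican of the adult brain made largely by astrocytes. Bcan was at 589, 493, 774, 541 and 588 CPM in untreated replicates 1 to 5 and at 592, 715, 709, 856 and 805 CPM in RG2833 replicates 1 to 5. The RG2833 values lay above the untreated mean in 4 of 5 rats, but untreated replicate 3 was higher than RG2833 replicates 1, 2 and 3. Untreated rats averaged 597 ± 107 CPM and RG2833 rats 736 ± 102 CPM (SD, n = 5 each). The fold change was 1.23, or 0.30 on the log2 scale (SE 0.13; 95% interval 0.0035 to 0.60), and edgeR's adjusted p was 0.841. Leaving out untreated replicate 3 gave 0.41, and leaving out either untreated replicate 2 or RG2833 replicate 4 gave 0.24. The astrocyte markers moved with it: 11 of 11 tested had a higher mean in RG2833, with a median log2 fold change of 0.33, and 0 of them passed the adjustment. Their summed level ran from 6303 to 9117 CPM in untreated and from 7036 to 10052 CPM in RG2833 libraries, and none of the listed astrocyte genes found in the table was at 0. Their part in the Bcan difference was not tested; in bulk tissue, more cells of a type and more RNA per cell cannot be told apart.

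Acan encodes aggrecan, the lectican used most often as a marker of mature nets. It was at 10.8, 10.7, 4.18, 9.0 and 11.0 CPM in untreated replicates 1 to 5 and at 10.1, 9.94, 9.40, 7.95 and 5.95 CPM in RG2833 replicates 1 to 5. The lowest library of each group, untreated replicate 3 and RG2833 replicate 5, stood well under the rest. The means were 9.14 ± 2.89 and 8.66 ± 1.73 CPM (n = 5 each). The log2 fold change was -0.08 (SE 0.25; 95% interval -0.63 to 0.47). It became -0.26 on leaving out untreated replicate 3 and 0.03 on leaving out RG2833 replicate 5, so its sign rested on single libraries.

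Ncan and Vcan encode neurocan and versican, lecticans that are abundant in the developing brain. Ncan ranged from 143 to 169 CPM in untreated and from 142 to 184 CPM in RG2833 libraries. Its log2 fold change was 0.08 (SE 0.08; 95% interval -0.09 to 0.25). Vcan ranged from 28.5 to 40.7 CPM and from 26.9 to 44.8 CPM. Its log2 fold change was 0.03 (SE 0.14; 95% interval -0.29 to 0.35). The groups covered nearly the same range for both. Leaving out RG2833 replicate 3 gave 0.033 for Ncan and leaving out RG2833 replicate 1 gave 0.13, while for Vcan single libraries moved the value between -0.071 and 0.11. For Ncan the interval leaves room for a rise of at most 1.19-fold and a drop to 0.94 of the untreated level.

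The link proteins Hapln1 and Hapln4 fasten lecticans to hyaluronan. Hapln1 was at 26.3, 21.4, 28.8, 30.2 and 28.5 CPM in untreated replicates 1 to 5 and at 27.3, 28.8, 37.4, 33.7 and 32.9 CPM in RG2833 replicates 1 to 5. All 5 RG2833 values lay above the untreated mean, while RG2833 replicates 1 and 2 lay within the untreated range. The means were 27.0 ± 3.46 and 32.0 ± 4.03 CPM (n = 5 each). The fold change was 1.19, or 0.25 on the log2 scale (SE 0.11; 95% interval -0.00028 to 0.49), and edgeR's adjusted p was 0.841. Leaving out each library in turn gave log2 fold changes from 0.17, without untreated replicate 2, to 0.30, without RG2833 replicate 1.

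Hapln4, a link protein that binds brevican and is known from nets of the brainstem and cerebellum, varied most of the 10. It was at 461, 510.0, 146, 340.2 and 552 CPM in untreated replicates 1 to 5 and at 470, 453, 490.0, 242 and 206 CPM in RG2833 replicates 1 to 5. Untreated replicate 3 and RG2833 replicates 4 and 5 were the lowest, as for Acan, and both groups held high and low rats. The means were 402 ± 164 and 372 ± 136 CPM (n = 5 each). The log2 fold change was -0.11 (SE 0.36; 95% interval -0.90 to 0.68). It ran from -0.32, without untreated replicate 3, to 0.046, without RG2833 replicate 5. Within groups, the SD of its log2 CPM was 0.70, larger than for 95.6% of the genes tested. For Acan it was 0.47, larger than for 88.9%, whereas for Ncan it was 0.12 and for Tnr 0.13, larger than for 24.4% and 28.8%. As folds, the 95% intervals ran from 0.536 to 1.60 for Hapln4 and from 0.648 to 1.39 for Acan.

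The tenascins are glycoproteins that bind lecticans. Tnr encodes tenascin-R, the cross-linker of the net. It was at 92.6, 79.9, 82.1, 98.8 and 91.5 CPM in untreated replicates 1 to 5 and at 83.1, 88.0, 103, 83.1 and 83.3 CPM in RG2833 replicates 1 to 5. RG2833 replicate 3 alone lay above the untreated mean in its group. The log2 fold change of -0.01 (SE 0.08) had a 95% interval from -0.20 to 0.17, or 0.873-fold to 1.12-fold, second in narrowness to that of Ncan among the 10. Tnc encodes tenascin-C, which is made by immature and reactive astrocytes. It ranged from 5.89 to 8.02 CPM in untreated and from 5.16 to 8.77 CPM in RG2833 libraries. Its log2 fold change was -0.13 (SE 0.15; 95% interval -0.47 to 0.21). It was -0.25 when RG2833 replicate 4 was left out, -0.085 for RG2833 replicate 5 and -0.055 for RG2833 replicate 1.

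Cspg5 and Ptprz1 encode membrane-bound proteoglycans: neuroglycan C, and a receptor protein tyrosine phosphatase whose shed ectodomain is phosphacan. Both are made by astrocytes and oligodendrocyte precursors, among other cells. Cspg5 was at 190, 168, 314, 216 and 208 CPM in untreated replicates 1 to 5 and at 209.7, 225, 228, 317 and 302 CPM in RG2833 replicates 1 to 5. Ptprz1 was at 399, 331, 562, 499 and 415 CPM and at 412, 516, 515, 615 and 620 CPM in the same order. For both genes untreated replicate 3 and RG2833 replicates 4 and 5 held the 3 highest values, and 4 of 5 RG2833 rats lay above the untreated mean. The log2 fold change was 0.23 for Cspg5 (SE 0.18; 95% interval -0.17 to 0.62) and 0.28 for Ptprz1 (SE 0.16; 95% interval -0.06 to 0.62). For Cspg5 it was 0.39 with untreated replicate 3 left out and 0.14 with either untreated replicate 2 or RG2833 replicate 4 left out; for Ptprz1 it ran from 0.19 to 0.38. The oligodendrocyte precursor markers, of which 9 of 10 were tested, had a median log2 fold change of 0.09; their summed level ran from 512 to 729 CPM in untreated and from 523 to 800.0 CPM in RG2833 libraries, and their part was not tested.

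**Figure D2:**
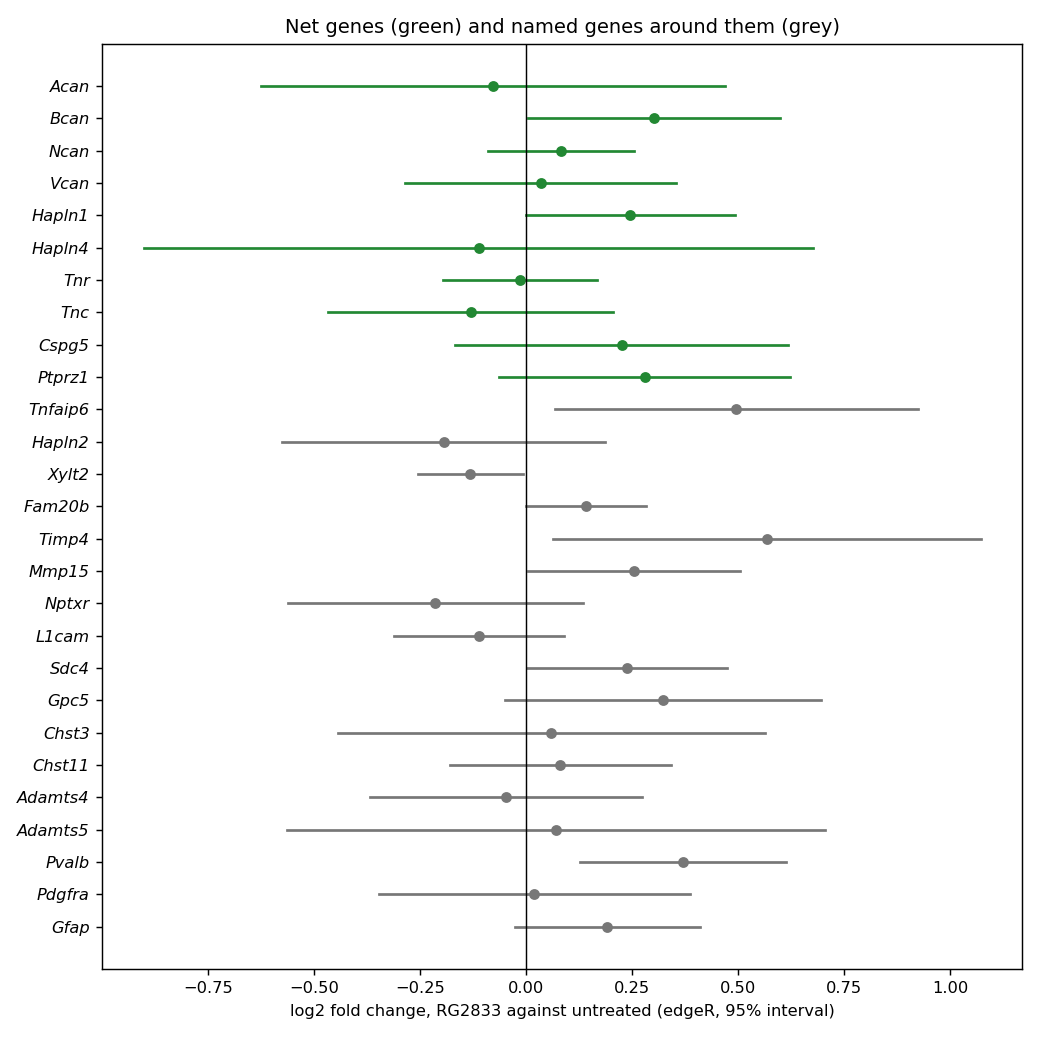
Log2 fold change of RG2833 against untreated with its 95% interval from edgeR (horizontal axis) for the 10 net genes in green and the other named genes in grey. Bcan (0.30), Ptprz1 (0.28), Hapln1 (0.25) and Cspg5 (0.23) lie to the right of 0, the intervals of Acan and Hapln4 are the widest of the green ones, and no gene passed the adjustment over 12161 genes.

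How the genes varied together from rat to rat was examined next. Pearson's r and Spearman's rho of log2 CPM were computed for 47 pairs, with p from 100000 permutations and Benjamini-Hochberg adjustment over the pairs. Of these, 7 had an adjusted p under 0.05 for r, 5 of them positive and 2 negative. The share of pairs passing among all genes tested was not computed. Genes other than the net genes came closer to some members than any member did, with r up to 0.999 for Hapln4, 0.995 for Acan and 0.996 for Bcan. A high r is therefore not particular to pairs of net genes. Without the choroid-rich pair of libraries only Acan with Hapln4 and Cspg5 with Ptprz1 passed, and without untreated replicate 3 and RG2833 replicates 4 and 5 only Cspg5 with Ptprz1, so neither negative pair passed in either case; these fits have 8 and 7 libraries.

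Acan and Hapln4 went together (r = 0.96, permutation p = 2.0e-05, adjusted 0.00094; rho = 0.88, permutation p = 0.00136, adjusted 0.0163). Without untreated replicate 3 and RG2833 replicate 5, the libraries farthest from the median of Acan, r was 0.91, and with the group means removed it was 0.96. Over the 7 libraries left without untreated replicate 3 and RG2833 replicates 4 and 5, r was 0.75. Those 3 were chosen after seeing that they were lowest in both genes, and leaving them out narrows the range of both. The part of the narrower range in the drop of r was not tested.

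Bcan, Cspg5 and Ptprz1 formed a second set. For Cspg5 and Ptprz1, r was 0.93 (permutation p = 4.0e-05, adjusted 0.00094) and rho 0.94 (p = 0.00022, adjusted 0.0103, by permutation). For Bcan and Cspg5, r was 0.92 (adjusted permutation p = 0.00219) and rho 0.89; for Bcan and Ptprz1, r was 0.90 (adjusted permutation p = 0.00959) and rho 0.88. Without the 2 libraries farthest on the first gene, these were 0.94, 0.84 and 0.81, and with group means removed 0.92, 0.92 and 0.86. Hapln1 joined this set through Ptprz1 (r = 0.81, adjusted permutation p = 0.0256). Leaving out untreated replicate 2 and RG2833 replicate 3 gave r = 0.87. This pair did not pass with unscaled CPM, where the other 6 did, for rho (0.79, adjusted permutation p = 0.0511) or with group means removed (r = 0.74, adjusted permutation p = 0.0992).

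Of the 6 pairs across the sets, only those with Cspg5 passed for r. Cspg5 was negatively related to Hapln4 (r = -0.88, adjusted permutation p = 0.0161), which did not pass for rho (-0.76, adjusted permutation p = 0.0693), and to Acan (r = -0.83, adjusted permutation p = 0.00959; rho = -0.88). Without untreated replicate 3 and RG2833 replicate 5, the libraries farthest from the median of both Hapln4 and Acan, the values were -0.80 and -0.86. Over the 7 libraries without the 3 that were low in Acan and Hapln4, they were -0.29 and -0.62, again over a narrowed range. With group means removed, r was -0.93 and -0.89. For Acan and Ptprz1 only rho passed (-0.83, adjusted permutation p = 0.0371; r = -0.68, adjusted permutation p = 0.117). Hapln4 and Ptprz1 passed for neither (r = -0.74, adjusted permutation p = 0.0779), but did with group means removed (r = -0.84, adjusted permutation p = 0.0475). Bcan passed with neither Acan nor Hapln4 (r = -0.64 and -0.68, adjusted permutation p = 0.124 for both), and its r with Hapln4 was 0.12 over the 7 libraries. No pair with Tnr, Ncan, Tnc or Vcan passed for r or rho.

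**Figure D3:**
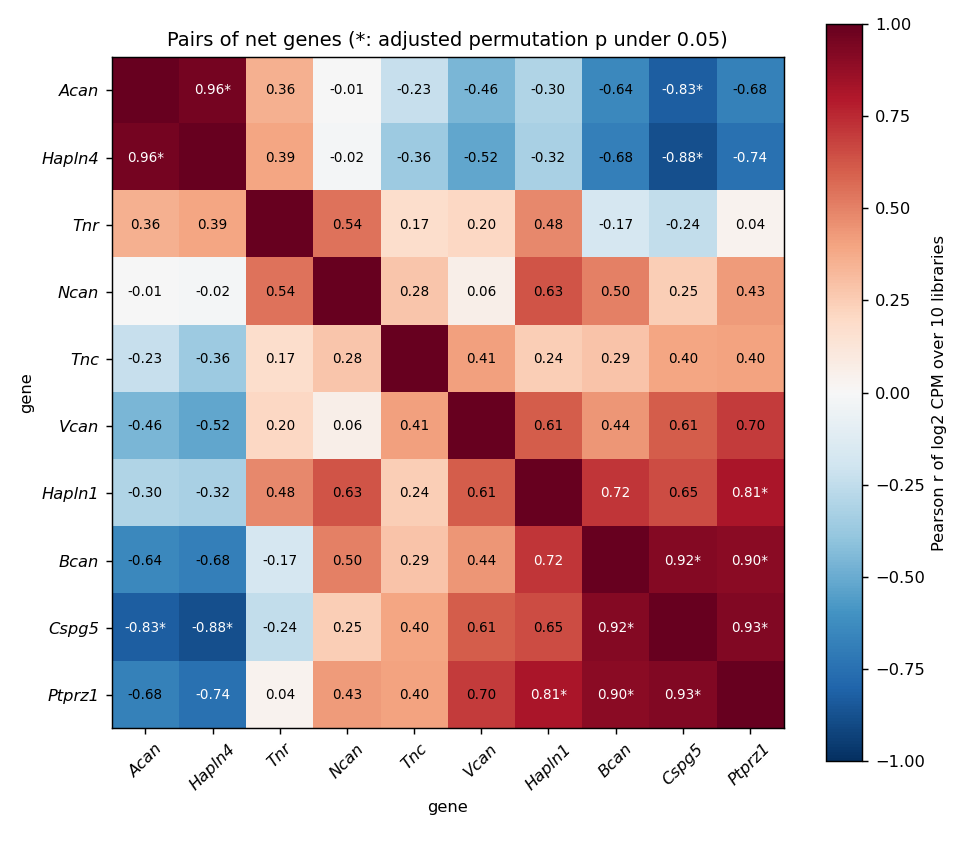
Pearson r of log2 CPM over the 10 libraries for each pair of the 10 genes (colour and printed value; both axes list the genes); stars mark an adjusted permutation p under 0.05. Acan and Hapln4 form a red block of 0.96, and Bcan, Cspg5 and Ptprz1 another of 0.90 to 0.93; Cspg5 is blue against the first block, at -0.83 and -0.88.

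Some marker lists separated the same 3 libraries and others did not. Beside the neuron and astrocyte levels given above, the CA2 list, of which 6 of 7 genes were tested, summed to 366 CPM in untreated replicate 3 and to 299 and 277 CPM in RG2833 replicates 4 and 5, against 384 to 476 CPM in the other 7. The parvalbumin interneuron list, with 11 of 11 genes tested, did not separate them: it stood at 506, 528 and 476 CPM there and at 392 to 651 CPM elsewhere. Neither did the oligodendrocyte list, at 7533, 11270 and 16538 CPM there and 8778 to 14770 CPM elsewhere, or the thalamus list, at 125, 119 and 123 CPM there and 110.5 to 202 CPM elsewhere. The endothelium and fibroblast list stood at 607, 526 and 636 CPM there. Elsewhere it was at 764 CPM in untreated replicate 2, which was rich in choroid plexus RNA, and at 317 to 420 CPM in the rest. The neocortex list, with 10 of 10 tested, stood at 390.0, 360.0 and 405 CPM there and at 248 to 329 CPM elsewhere. Oligodendrocyte precursor markers summed to 729, 710 and 800.0 CPM there, against 512 to 622 CPM. The microglia list, with 10 of 10 tested, stood at 1062, 811 and 856 CPM there, against 570.3 to 699 CPM. None of these lists had a gene at 0 in all libraries. What these lists contribute to the pattern of Acan, Hapln4, Bcan, Cspg5 and Ptprz1 was not tested.

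**Figure D4:**
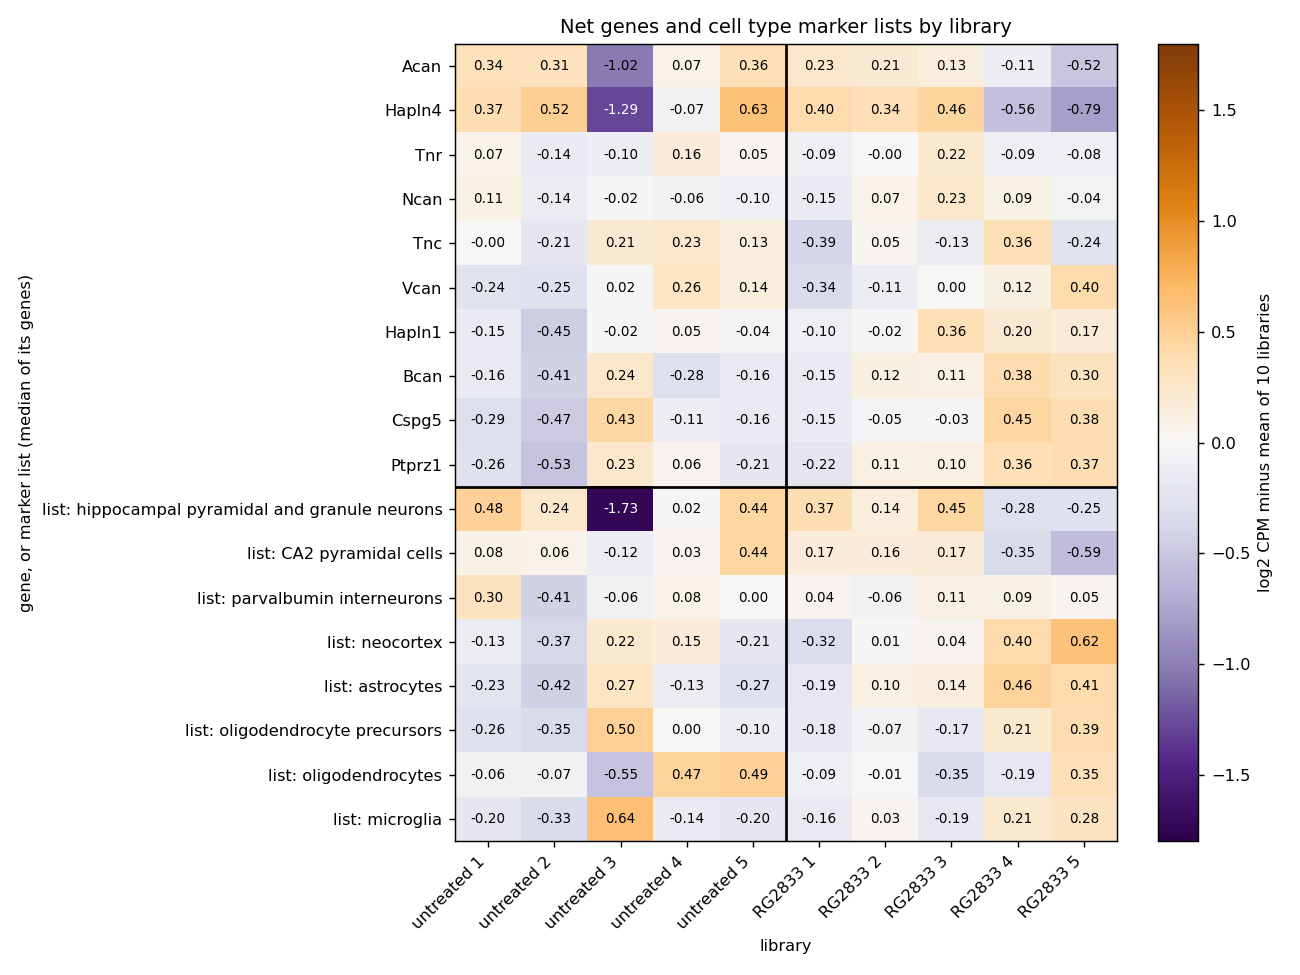
Log2 CPM of each net gene, and the median over each marker list, minus its mean over the 10 libraries (colour and printed value), with libraries on the horizontal axis and a line between untreated and RG2833. Untreated 3 and RG2833 4 and 5 share low Acan, Hapln4 and hippocampal neuron values and high Bcan, Cspg5, Ptprz1 and astrocyte values; parvalbumin interneuron values there are -0.06, 0.09 and 0.05.

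Genes that lie side by side were also compared. In the RefSeq table of the GRCr8 assembly, in which all 10 genes were found, each lectican gene is next to a gene of a link protein, with 0 protein-coding genes between them: Acan and Hapln3 on chromosome 1, Bcan and Hapln2 and also Vcan and Hapln1 on chromosome 2, and Ncan and Hapln4 on chromosome 16. None of the 4 neighbouring pairs passed. For Ncan and Hapln4, r was -0.02 (permutation p = 0.959, adjusted 0.98) and rho -0.27 (permutation p = 0.449). For Vcan and Hapln1, r was 0.61 (permutation p = 0.0603, adjusted 0.167) and rho 0.61 (permutation p = 0.0673). For Bcan and Hapln2, r was -0.09 (adjusted permutation p = 0.866) and rho -0.04. For Acan and Hapln3, r was -0.61 (adjusted permutation p = 0.167) and rho -0.50, and r was 0.13 without untreated replicate 3 and RG2833 replicate 5. Hapln3 was at 0.454 to 1.49 CPM.

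The promoters of Acan and Hapln4, which went together on different chromosomes, are shown beside that of Ncan, the neighbour of Hapln4 that did not follow it. Each is the RefSeq window of 300 bases from 250 before to 50 after the start, GRCr8, read 5′ to 3′ on the gene's own strand; capitals mark matches to the GC box GGGCGG on either strand. Such windows were found for 8 of the 10 genes, all but Cspg5 and Ptprz1. The first is at chr1:142390701-142391000 (plus strand), the second at chr16:19375124-19375423 (minus strand) and the third at chr16:19335657-19335956 (plus strand).
Acan: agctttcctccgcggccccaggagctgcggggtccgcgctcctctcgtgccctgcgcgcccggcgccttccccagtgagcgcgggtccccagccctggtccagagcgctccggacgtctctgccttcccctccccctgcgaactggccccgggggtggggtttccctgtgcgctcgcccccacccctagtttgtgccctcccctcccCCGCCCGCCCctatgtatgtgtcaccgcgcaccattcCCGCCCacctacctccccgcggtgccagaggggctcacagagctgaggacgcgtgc
Hapln4: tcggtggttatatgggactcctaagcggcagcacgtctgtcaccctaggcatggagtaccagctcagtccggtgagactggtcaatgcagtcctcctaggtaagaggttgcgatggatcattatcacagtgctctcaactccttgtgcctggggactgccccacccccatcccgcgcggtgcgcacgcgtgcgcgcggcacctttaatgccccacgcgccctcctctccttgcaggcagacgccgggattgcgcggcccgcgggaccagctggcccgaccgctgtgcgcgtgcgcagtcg
Ncan: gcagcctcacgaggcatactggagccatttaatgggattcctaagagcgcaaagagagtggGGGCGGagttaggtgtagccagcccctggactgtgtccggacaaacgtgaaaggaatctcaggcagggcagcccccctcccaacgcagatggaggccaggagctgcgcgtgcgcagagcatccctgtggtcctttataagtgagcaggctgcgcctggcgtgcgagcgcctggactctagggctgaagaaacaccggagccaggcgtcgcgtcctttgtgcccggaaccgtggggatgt
The Acan window holds 3 GC boxes, the Hapln4 window 0 and the Ncan window 1; 33.1% of the 33469 RefSeq windows hold at least 1. CG dinucleotides number 28, 28 and 19, against a median of 7 over all windows. These are descriptions of the letters, and the data hold no measurement at the promoters.

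**Figure D5:**
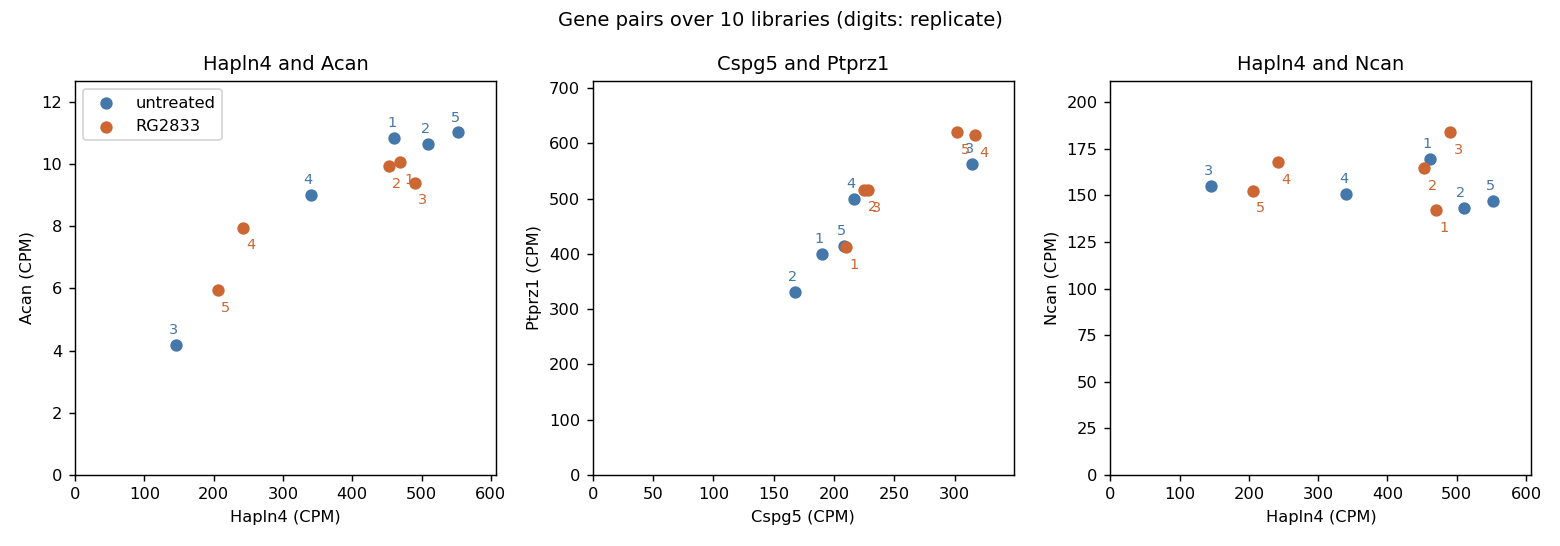
CPM of 3 gene pairs in the 10 libraries, both axes from 0 (blue untreated, orange RG2833, digits replicate numbers): Hapln4 with Acan, Cspg5 with Ptprz1, and Hapln4 with its neighbour Ncan. The first and second pairs rise along a line in both groups, while Ncan stays between 142 and 184 CPM over the whole range of Hapln4. For the first and second pairs, r of log2 CPM over all 10 libraries was 0.96 and 0.93.

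Genes that build, cut and bind the net were looked at in 5 lists. At an adjusted p under 0.05, edgeR called 0 of the 90 tested entries. By list the tested entries were 10 of hyaluronan and link proteins, 20 of chondroitin sulfate synthesis, 17 of proteases and inhibitors, 18 of receptors and ligands and 25 of other proteoglycans. The median log2 fold changes were 0.02, -0.02, 0.07, -0.08 and -0.08 in that order. At an unadjusted p under 0.05 there were 5 entries in all, 4 higher and 1 lower, against 5.66% of all genes.

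Of the hyaluronan and link protein genes, Tnfaip6, which encodes a hyaluronan-binding protein, had the smallest p. Untreated rats averaged 1.70 ± 0.28 CPM and RG2833 rats 2.40 ± 0.52 CPM (n = 5 each), higher than the untreated mean in 5 of 5. The log2 fold change was 0.50 (SE 0.19; edgeR adjusted p = 0.841). Hapln2, the link protein of nodes of Ranvier, had a log2 fold change of -0.19 (SE 0.17). This became -0.34 without RG2833 replicate 5, -0.12 without RG2833 replicate 3, -0.087 without untreated replicate 5 and -0.47 without the 3 libraries low in Acan and Hapln4. The hyaluronan synthases Has2 and Has3 had at most 14 and 16 counts in a library and were not tested.

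Of the chondroitin sulfate enzymes, Xylt2, which starts the chain, averaged 36.1 ± 1.31 CPM in untreated and 32.9 ± 1.91 CPM in treated rats. Its log2 fold change was -0.13 (SE 0.06; edgeR adjusted p = 0.841), and 0 of 5 RG2833 rats lay above the untreated mean; without the 3 libraries low in Acan and Hapln4 it was -0.061. Fam20b, a kinase of the linkage region, had a log2 fold change of 0.14 (SE 0.06). Chst11 and Chst3 encode the sulfotransferases for the 4-O and 6-O positions of the chain, whose balance shifts from 6-O to 4-O as nets mature. Chst3 had only 15 to 28 counts in a library. The log2 ratio of Chst11 to Chst3 counts averaged 4.42 ± 0.46 without and 4.45 ± 0.45 with RG2833 (n = 5 each; two-sided exact permutation p = 0.921, where the smallest possible is 0.00794). The ratio itself was lowest in untreated replicate 3, at 12.8, and in RG2833 replicates 5 and 4, at 14.2 and 17.5, against 20.4 to 30.1 in the other 7.

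Of the proteases and inhibitors, Timp4, an inhibitor of metalloproteinases, had the largest log2 fold change, 0.57 (SE 0.23; edgeR adjusted p = 0.841). It was at 18.5, 17.1, 33.1, 15.7 and 17.9 CPM in untreated replicates 1 to 5 and at 20.4, 28.4, 28.0, 37.7 and 37.2 CPM in RG2833 replicates 1 to 5. Untreated replicate 3 was thus higher than RG2833 replicates 1 to 3, and without it the log2 fold change was 0.81. Mmp15, a membrane-type metalloproteinase, had a value of 0.25 on the same scale (SE 0.11), and 5 of 5 RG2833 rats lay above the untreated mean. The aggrecanases Adamts4 and Adamts5, which cut lecticans, had log2 fold changes of -0.05 (SE 0.15) and 0.07 (SE 0.29). Without the 3 libraries low in Acan and Hapln4 these were -0.26 and 0.26, and single libraries turned the sign of both.

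The receptor and ligand list held no gene at an unadjusted p under 0.05; its smallest were Nptxr, the neuronal pentraxin receptor, at a log2 fold change of -0.21 (SE 0.16), and L1cam, an adhesion molecule, at -0.11 (SE 0.09). Nptxr was at -0.099 without RG2833 replicate 5 and at -0.0040 without the 3 libraries low in Acan and Hapln4. L1cam was at -0.18 without untreated replicate 2 and at -0.054 without untreated replicate 1. Among other proteoglycans, the syndecan gene Sdc4 had a log2 fold change of 0.24 (SE 0.11; 5 of 5 RG2833 rats above the untreated mean) and the glypican gene Gpc5 one of 0.32 (SE 0.17). The edgeR adjusted p was 0.841 for both.

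Pvalb, the calcium-binding protein of the interneurons that carry most nets, averaged 34.7 ± 5.89 CPM without and 44.8 ± 3.39 CPM with RG2833 (n = 5 each). All 5 RG2833 rats lay above the untreated mean, with untreated replicate 5 (43.1 CPM) inside the RG2833 range. Its log2 fold change was 0.37 (SE 0.11), and edgeR's adjusted p was 0.841. The parvalbumin interneuron list as a whole had 6 genes higher and 5 lower, with a median log2 fold change of 0.03. Pdgfra, of oligodendrocyte precursors, had a log2 fold change of 0.02 (SE 0.17), and Gfap, of astrocytes, one of 0.19 (SE 0.10).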

How the data were processed

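Left hippocampal RNA of 10 rats was sequenced with a stranded mRNA kit, per the labels' protocols. The authors deposited RSEM expected counts per gene and a table of TMM-normalized CPM (a scaled signal whose columns do not sum to a fixed total). The submitters' processing notes name bcl2fastq 2.17, Bowtie2 2.1.0, RSEM 1.2.15, edgeR and the build rn6; the annotation is not given in the sources used here. After rounding, the expected counts went into edgeR 4.0.16 (R 4.3.3): filterByExpr (minimum count 10, minimum total 15), TMM, robust quasi-likelihood F test, Benjamini-Hochberg over 12161 genes, threshold 0.05. Intervals at 95% use the test's own SE and degrees of freedom. CPM printed here come from this TMM scaling; the deposited CPM served as a check, and the median ratio of printed to deposited values was 0.971 to 1.01 in each library. Log2 CPM used a prior count of 2. No transcript lengths were used, so levels are not compared between genes. Fits were tested on simulated data.

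The 10 genes and the lists were chosen with earlier results of these data known. Of 230 list entries, 216 matched a gene by symbol or RefSeq synonym and 207 were tested. Named were the 10 genes, 10 further genes in any case and the 2 genes with the smallest p in each of 5 pathway lists; for each of the 10 genes, genes with the highest r could be named. Equal replicate numbers were not taken to pair rats. Alternatives were other scalings, filters and tests (limma 3.58.1, DESeq2 1.42.0), 2 surrogate variables (sva 3.50.0), a replicate block, and leaving out libraries.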

Additional observations from a re-analysis of the deposited data

Results flagged for a closer look

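Values that lay far from the other 4 of their group were looked for in 56 sets of 5 (the named genes and the Chst11 to Chst3 ratio, by group), where the gap to the nearest value had to exceed 0.71 of the range. There were 3 such values, and chance gives about 2.8. Tnr in RG2833 replicate 3 reached 103 CPM, and the remaining 4 ran from 83.1 to 88.0 CPM. Timp4 in untreated replicate 3 was 33.1 CPM, against 15.7 to 18.5 CPM. Adamts5 in RG2833 replicate 1, a library rich in choroid plexus RNA, was 3.48 CPM, against 1.52 to 1.73 CPM; its log2 fold change was -0.23 without that library.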

How the results depend on the processing

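With edgeR, 0 of the 10 genes passed under every alternative run, and the same held with DESeq2 and limma-voom; these counts do not show that the genes are unaffected. Over all genes DESeq2 called 7 and the fit with 2 surrogate variables 118. With 2 surrogate variables 3 pathway genes passed, Timp4, Gpc5 and Mdk (a growth factor that binds chondroitin sulfate, named after its value was seen), each at an adjusted p of 0.0417, and the adjusted p of Bcan was 0.0523; the cause was not tested. The number of genes at an unadjusted p under 0.05 was 688 with all libraries and ran from 375 (without RG2833 replicate 4) to 1732 (without untreated replicate 3) with 1 library left out; it was 424 without RG2833 replicate 5 and was 401 with the replicate block, which called 0 genes. Same-numbered libraries did not deviate together (correlations from -0.49 to -0.03), so the numbers were not taken as pairs.

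Signs turned for values near 0. With 2 surrogate variables the log2 fold change was 0.034 for Acan, -0.037 for Vcan and 0.043 for Hapln4. Without the choroid-rich pair of libraries it was -0.042 for Adamts5, and the ratio of Chst11 to Chst3 differed by -0.0059. Without the 3 libraries lowest in Acan and Hapln4, an alternative chosen after seeing the data, it was -0.14 for Vcan, 0.012 for Hapln4, 0.0060 for Tnr and -0.12 for Chst3. With 1 library left out at a time it ran from -0.26 to 0.033 for Acan, -0.071 to 0.11 for Vcan, -0.32 to 0.046 for Hapln4, -0.076 to 0.026 for Tnr, -0.045 to 0.17 for Chst3, -0.17 to 0.031 for Adamts4, -0.23 to 0.26 for Adamts5 and -0.062 to 0.17 for Pdgfra; the difference in the ratio ran from -0.15 to 0.19. For Bcan, Hapln1, Cspg5, Ptprz1 and Ncan it stayed above 0 and for Tnc below 0 under every alternative. Of the gene pairs, 2 passed without the choroid-rich pair of libraries and 1 without the 3 low libraries, against 7 with all.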

Other observations

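Beyond the net genes themselves, the genes whose log2 CPM over the 10 libraries was most like theirs were looked up among the genes tested. Left out were symbols that start with LOC or RGD, repeated symbols and symbols with a hyphen between a digit and a capital letter. They were chosen for a high r, so r is a description with no test. Closest to Hapln4 were Cttn, which encodes the actin-binding protein cortactin (r = 0.999), and Pwwp2b (0.996). Closest to Acan were Lhx9, a LIM homeobox transcription factor gene (0.995), and Rab33b, of Golgi trafficking (0.989). Closest to Bcan were Mmd2 (0.996) and Lix1 (0.992). Closest to Cspg5 were Neurl1b and Map3k9 (0.987 each). Closest to Ptprz1 were Aida (0.989) and Slc1a3, the astrocyte glutamate transporter (0.984). Closest to Ncan, Vcan and Hapln1 were Pip5k1c (0.985), Sh3glb1 (0.956) and Mdga2 (0.973). The nearest genes of Tnr and Tnc, Acvr1b (0.879) and Xrcc6 (0.871), were less alike.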
